A study of Brassica rapa and Brassica oleracea and Brassica napus with 3 samples.

Results

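Single-exon genes were studied in the BS-seq library of young leaves of *B. napus* ZS11, an allotetraploid oilseed whose genome holds an A subgenome (An) and a C subgenome (Cn). A gene was counted as single-exon when the first of its transcripts in the deposited table had exactly 1 exon row. By this count 21413 of the 96916 genes on the 19 numbered chromosomes were single-exon (22.1%), with 9576 of 44359 genes in An (21.6%) and 11837 of 52557 genes in Cn (22.5%). They were compared with the 29251 An genes and 34905 Cn genes of 2 to 9 exons. The rule uses exon number and no methylation level. All 21413 genes had a single annotated transcript, and 93.2% of them had no row for an untranslated region (UTR).

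Leaves came from hydroponically grown ZS11 plants with no treatment named, whose age is given as 2 weeks in the methods and as 14 d in the labels. The methods describe bisulfite treatment of genomic DNA, but the extraction protocol in the labels is one for RNA, and for the *B. oleracea* library it is one with formaldehyde fixation. The series also holds a library of each diploid, *B. oleracea* JZS and *B. rapa* Chiifu, and of these only *B. oleracea* is used here, at the end. The *B. napus* data are a single library, so there is no replicate and no test between plants. As the spread within this library, the SD over the 10 chromosomes of An or the 9 of Cn is given, together with the number of chromosomes on which a difference had the same sign. The difference between both gene classes was not tested, because genes and chromosomes of a single library are not replicates.

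BS-seq reads methylation from a chemical conversion, in which cytosines without a methyl group end up as thymines and methylated ones are kept. Plants methylate cytosines in the CG, CHG and CHH contexts, where H stands for a base other than G. Gene bodies of many plant genes carry CG methylation away from their ends, whereas transposable elements are usually methylated in all contexts. In *Arabidopsis*, gene body methylation is typical of long, evenly expressed genes with several exons. Genes without introns in plants include members of large regulatory and enzyme families, recently retroposed copies and open reading frames whose annotation as genes is uncertain. The deposited table does not separate the cytosine contexts, gives no gene names or gene lengths, and no identifier could be paired with a function or a sequence here.

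Each gene had 12 bins, of which 4 covered the upstream flank, 4 the gene body and 4 the downstream flank, all ordered as the gene is transcribed. This layout held in the single-exon genes themselves. In 1299 of 1299 genes with a 5′ UTR row, that row had the same upstream flank as the gene. In 1395 of 1395 genes with a 3′ UTR row, that row had the same downstream flank. The methylation level of a region is its mean over measured bins, in percent, and was taken where at least 2 of 4 bins were measured. Read depth per bin is unknown.

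A gene body level was obtained for 8187 An and 10551 Cn single-exon genes. Single-exon gene bodies in An had a mean methylation level of 3.17% ± 0.791 (SD of chromosome means), against 4.11% ± 1.02 in genes of 2 to 9 exons. The difference of −0.940 percentage points exceeded the SD of the chromosome differences (0.463) and had the same sign on 10 of 10 chromosomes. In Cn the means were 5.56% ± 0.471 in single-exon genes and 5.61% ± 0.355 in genes of 2 to 9 exons. That difference of −0.0494 points was smaller than its SD (0.261) and was negative on 7 of 9 chromosomes. The typical gene differed more than the mean. The median body level was 0.103% in An single-exon genes and 0.580% in An genes of 2 to 9 exons. In Cn the medians were 0.211% in single-exon genes and 1.06% in genes of 2 to 9 exons. Single-exon genes had the lower median on 10 of 10 A chromosomes and 9 of 9 C chromosomes.

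The Cn mean depended on the genes and rows entered. Among genes with a value in all 4 body bins, it was 4.25% in single-exon genes and 5.14% in genes of 2 to 9 exons. When the body of multi-exon genes was read from their exon rows in place of the gene row, their Cn mean was 5.15%, which put single-exon genes 0.412 points higher. With the same exon rows in An, the difference was −0.482 points. With bins at exactly 0 left out, single-exon genes had the higher mean in both subgenomes, at 7.36% against 5.97% in An and 11.2% against 7.75% in Cn. This setting leaves out bodies at exactly 0 and removes more body bins from single-exon genes, which by construction favours a higher mean in them.

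Along the gene, the mean levels of single-exon genes formed a trough between higher flanks. The medians of flank bins were lower than the means, from 0.518% to 3.07% in An and from 2.22% to 9.38% in Cn. Every body bin had a median of 0. In An the mean level was 9.40% in the upstream bin farthest from the gene, 6.0% in the upstream bin next to it and 2.86% in the first body bin. The last body bin had 2.86% as well, and the downstream flank ran from 5.68% beside the gene to 8.30% at its far end. In Cn the corresponding levels were 12.9%, 8.35% and 4.97% towards the start, then 5.23%, 7.82% and 11.4% from the last body bin outwards. In An, the far upstream bin was thus 3.28 times the first body bin in single-exon genes, against 2.53 times in genes of 2 to 9 exons. In Cn these ratios were 2.59 in single-exon genes and 2.45 in genes of 2 to 9 exons. Across the body, single-exon profiles were nearly flat, between 2.86% and 3.10% in An and between 4.97% and 5.43% in Cn. Genes of 2 to 9 exons ranged from 3.59% to 4.18% in An and from 5.08% to 5.81% in Cn.

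**Figure D1:**
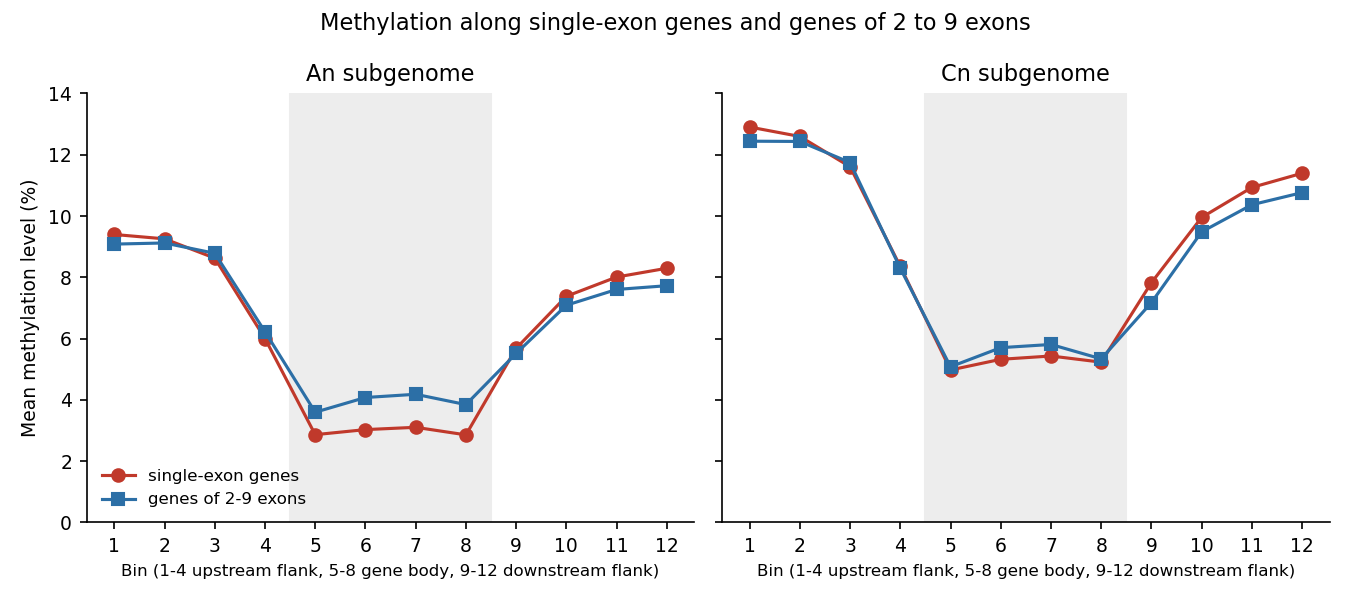
Mean methylation level (%) in each of the 12 bins of single-exon genes (circles) and genes of 2 to 9 exons (squares), in An (left) and Cn (right), with the gene body shaded. In An the single-exon curve lies below the other only in the body (3.10% against 4.18% in the third body bin) and in the 2 upstream bins next to it, while in Cn the curves run close together and single-exon genes are higher throughout the downstream flank.

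The upstream flanks differed little. Their mean level was 8.51% in single-exon genes and 8.48% in genes of 2 to 9 exons in An, and 11.4% and 11.3% in the same order in Cn. Both differences were smaller than the SD of the chromosome differences (0.689 in An and 0.212 in Cn). The upstream flank was at 20% or more in 13.8% of An single-exon genes and 14.1% of An genes of 2 to 9 exons, with 14.1% of all An genes, and at exactly 0 in 5.60% of single-exon genes and 5.69% of genes of 2 to 9 exons, with 5.61% of all genes. In Cn the upstream flank was at 20% or more in 21.2% of single-exon genes, 21.1% of genes of 2 to 9 exons and 21.1% of all genes. It was at 0 in 3.57% of single-exon genes, 3.39% of genes of 2 to 9 exons and 3.53% of all genes. All these shares were close to those of all genes.

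Downstream, An single-exon genes had 7.55% and An genes of 2 to 9 exons had 7.16%. The difference of 0.392 points was smaller than its SD of 0.564, with 8 of 10 chromosomes higher in single-exon genes. In Cn the downstream levels were 10.1% in single-exon genes and 9.51% in genes of 2 to 9 exons. The difference of 0.583 points was larger than its SD of 0.296 and positive on 9 of 9 chromosomes. Against genes of exactly 2 exons, however, the downstream difference of Cn single-exon genes was −0.402 points. Among Cn genes with a body level under 20%, the downstream difference was 0.191 points, below the SD of 0.296 found without this limit. A downstream flank at 20% or more was found in 12.3% of An single-exon genes, 11.5% of An genes of 2 to 9 exons and 11% of all An genes. In Cn it was found in 17.5% of single-exon genes, 16.1% of genes of 2 to 9 exons and 15.8% of all genes, with the higher share in single-exon genes on 9 of 9 chromosomes. A downstream level of 0 was measured in 6.59% of An single-exon genes, 6.33% of An genes of 2 to 9 exons and 6.49% of all An genes. In Cn it was measured in 3.86% of single-exon genes, 4.0% of genes of 2 to 9 exons and 4.09% of all genes.

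The distribution of body levels separated single-exon genes from genes of 2 to 9 exons most clearly. A body level of exactly 0 was found in 3546 single-exon genes of An (43.3%), against 18.1% of An genes of 2 to 9 exons, with 21% of all An genes having this level. Cn had 4112 such single-exon genes (39.0%), against 16.0% of genes of 2 to 9 exons and 19.2% of all genes. On single chromosomes the share at 0 was 38.4% to 46.3% in An single-exon genes and 15.7% to 19.3% in An genes of 2 to 9 exons. In Cn it was 37.9% to 43.1% in single-exon genes and 14.7% to 20% in genes of 2 to 9 exons. The chromosome values of both gene classes therefore did not overlap in either subgenome. The body of a single-exon gene is all exon, whereas the gene rows of the other class include introns. On exon rows, 28.1% of An and 24.6% of Cn genes of 2 to 9 exons were at 0, which lowers the difference to 15.2 points in An, against 25.3 on gene rows, and to 14.3 points in Cn, against 22.9 on gene rows.

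Intermediate levels were less frequent in single-exon genes. A body level from 1% to under 20% was found in 17.6% of An single-exon genes, 34.6% of An genes of 2 to 9 exons and 34.1% of all An genes. In Cn these shares were 21.7% of single-exon genes, 40.9% of genes of 2 to 9 exons and 39.5% of all genes. Single-exon genes had the lower share on all 19 chromosomes. On exon rows, the share in genes of 2 to 9 exons was 27.4% in An and 33.8% in Cn, and the difference was −9.72 points in An and −12.1 points in Cn, against −16.9 and −19.1 on gene rows. These exon-row levels were pooled over all exons in the same way. Levels above 0 but under 1% were held by 33.0% of single-exon genes and 40.3% of genes of 2 to 9 exons in An, and by 27.3% of single-exon genes and 33.0% of genes of 2 to 9 exons in Cn.

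Highly methylated bodies, defined by a level of at least 20%, were found in 496 An single-exon genes (6.06%), against 7.07% of genes of 2 to 9 exons and 6.03% of all An genes. The An share was lower in single-exon genes on 7 of 10 chromosomes, by less than the SD (1.26 points). In Cn, 1272 single-exon genes (12.1%) were highly methylated, against 10.1% of genes of 2 to 9 exons and 9.57% of all genes, and the share was higher in single-exon genes on 9 of 9 chromosomes. This Cn difference was not seen among genes with equally complete bodies. Among genes with all 4 body bins, 8.85% of 9050 Cn single-exon genes and 8.85% of 31817 genes of 2 to 9 exons reached 20%. Among genes with 2 or 3 body bins, 31.4% of 1501 single-exon genes and 33.5% of 1753 genes of 2 to 9 exons did. The limit mattered too. At 10%, 17.3% of Cn single-exon genes and 20.6% of Cn genes of 2 to 9 exons passed, which turns the direction of the difference. At 30%, the Cn shares were 6.47% in single-exon genes and 3.05% in genes of 2 to 9 exons, a difference of 3.42 points. In An, 3.46% of single-exon genes and 2.77% of genes of 2 to 9 exons reached 30%, so the An difference was then positive (0.687 points).

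At the top of the distribution, levels of at least 50% were found in 58 An single-exon genes (0.708%), against 0.317% of genes of 2 to 9 exons and 0.353% of all An genes. In Cn they were found in 126 single-exon genes (1.19%), against 0.250% of genes of 2 to 9 exons and 0.421% of all genes. Single-exon genes had the higher share on 9 of 10 A chromosomes and 9 of 9 C chromosomes. A05 was the exception, with 1.06% in single-exon genes and 1.22% in genes of 2 to 9 exons. Among genes with all 4 body bins, the shares were 0.357% in single-exon genes and 0.102% in genes of 2 to 9 exons in An, and 0.608% in single-exon genes and 0.116% in genes of 2 to 9 exons in Cn. With 2 or 3 body bins they were 3.54% in single-exon genes and 4.40% in genes of 2 to 9 exons in An, and 4.73% and 2.68% in the same order in Cn. Only 2 or 3 body bins were measured in 32 of the 58 An and 71 of the 126 Cn single-exon genes at 50% or more. For genes of 2 to 9 exons this held for 59 of 85 in An and 47 of 84 in Cn.

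**Figure D2:**
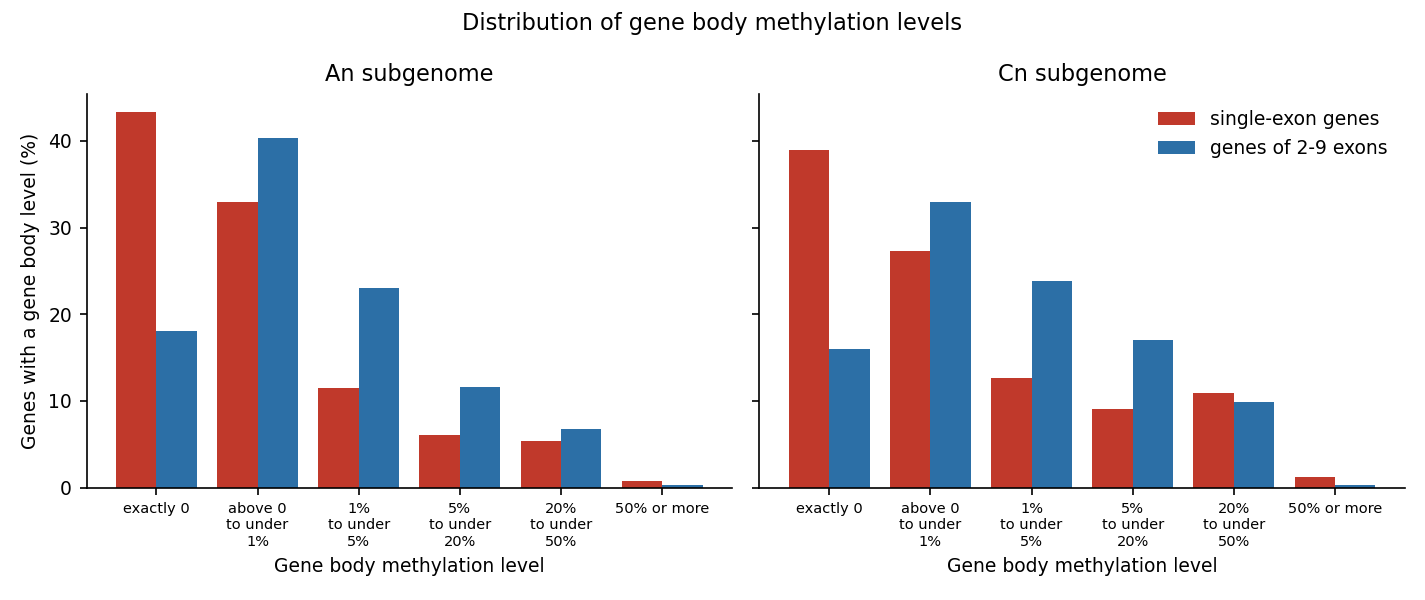
Share of genes (%) in 6 bands of gene body methylation level, for single-exon genes (left bar of each pair) and genes of 2 to 9 exons (right bar), in An (left panel) and Cn (right panel). Single-exon genes are more frequent at exactly 0 (43.3% against 18.1% in An, 39.0% against 16.0% in Cn) and at 50% or more, and less frequent in the bands from 1% to under 20%.

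Zero bins and missing bins both moved with exon number. Body bins are divisions of the gene, so a short gene has fewer cytosines and reads per bin, and gene length is not in the table. Single body bins were at exactly 0 in 62.2% to 65.6% of An single-exon genes, against 36.4% to 43.1% of genes of 2 to 9 exons. In Cn they were at 0 in 55.6% to 59.5% of single-exon genes, against 31.9% to 38.9% of genes of 2 to 9 exons. Flank bins were at 0 in 19.9% to 29.0% of An single-exon genes and 20.4% to 28.1% of An genes of 2 to 9 exons. In Cn the flank bins were at 0 in 13.4% to 22.0% of single-exon genes and 13.6% to 21.7% of genes of 2 to 9 exons. The excess of zeros was thus seen in the body and not in the flanks. Missing values also differed. Body bins had no value in 16.9% to 17.4% of An single-exon genes and 9.43% to 9.72% of An genes of 2 to 9 exons. In Cn they were missing in 13.4% to 15.0% of single-exon genes and 5.13% to 5.40% of genes of 2 to 9 exons. No body bin at all had a value in 1197 An single-exon genes (12.5%) and 955 Cn single-exon genes (8.07%), of which 188 in An and 374 in Cn had all 8 flank bins. The part of gene length and read depth in the share at 0 was not tested.

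The chromosomes differed more in An than in Cn. Mean body levels of single-exon genes were between 2.07% (A08) and 4.69% (A05) in An and between 5.04% (C01) and 6.69% (C02) in Cn. A05 had the highest mean in both gene classes, with 4.69% in single-exon genes and 6.61% in genes of 2 to 9 exons, and also the largest gap between them. C02 and C03 were the C chromosomes on which single-exon genes had the higher mean, at 6.69% against 6.28% on C02 and 5.35% against 5.07% on C03. The share of highly methylated single-exon bodies was 3.31% on A08 and 10.2% on A05, and between 10.8% (C01) and 14.7% (C02) in Cn.

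**Figure D3:**
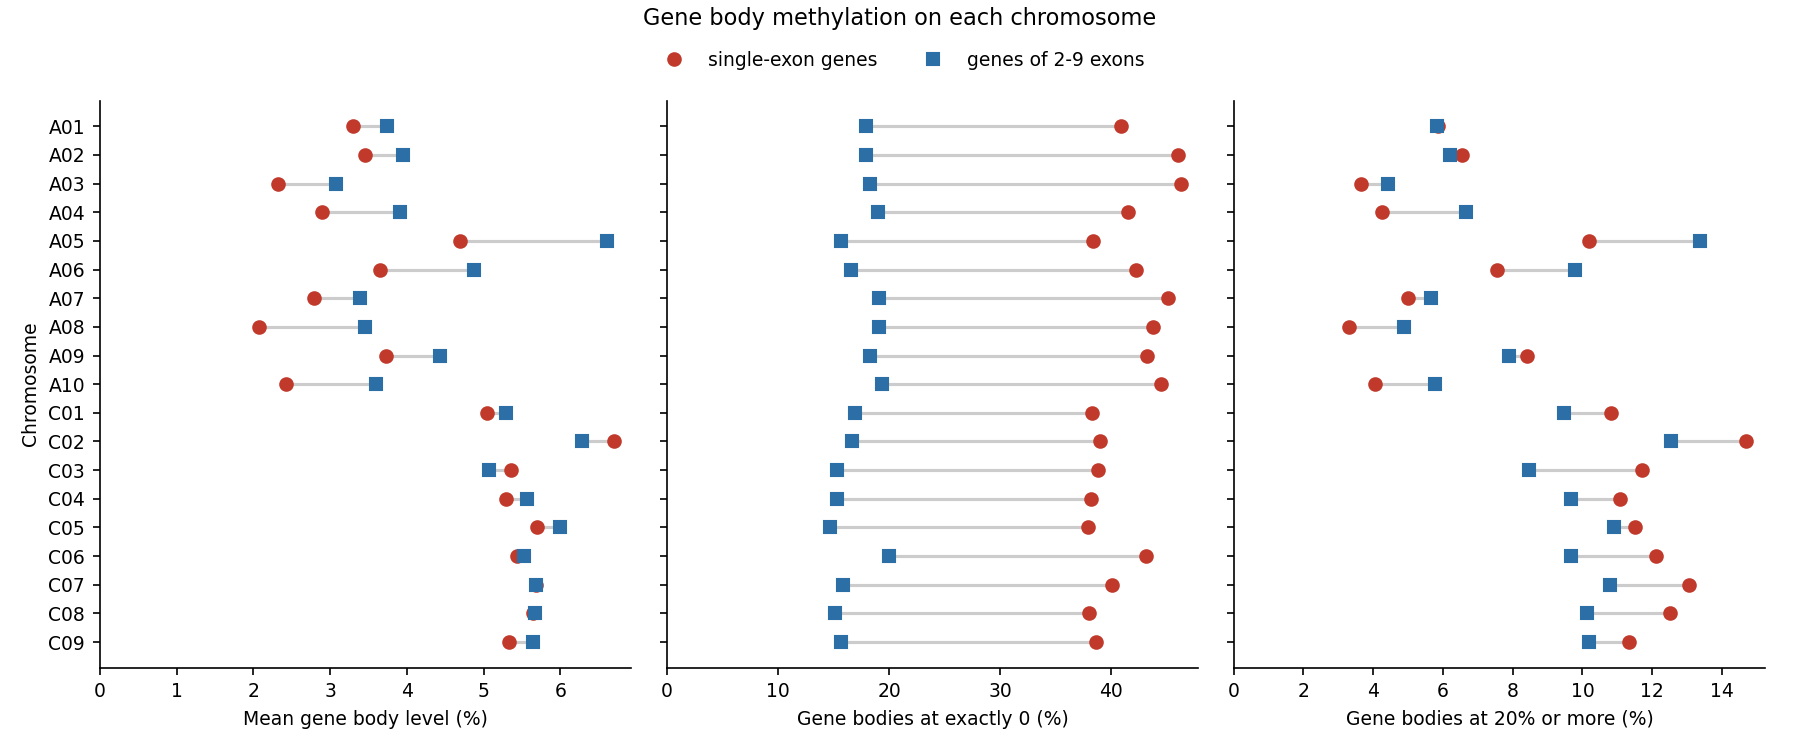
Mean gene body level (%), share of gene bodies at exactly 0 (%) and share at 20% or more (%) on each of the 19 chromosomes, for single-exon genes (circles) and genes of 2 to 9 exons (squares), with a grey line joining the values of a chromosome. Single-exon genes have the lower mean on every A chromosome, the higher share at 0 on every chromosome and the higher share at 20% or more on every C chromosome.

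Across exon numbers, single-exon genes lay at the end of some trends and broke others. The share of bodies at 0 was 43.3% at 1 exon, 29.3% at 2, 21.1% at 3 and 4.80% at 9 exons in An. In Cn it was 39.0%, 25.1%, 18.9% and 3.6% at the same exon numbers. Median levels went the other way, from 0.103% at 1 exon through 0.311% at 2 to 1.03% at 9 exons in An, and from 0.211% through 0.759% to 1.45% in Cn. The mean and the share of highly methylated bodies did not follow this order. The An mean was 3.17% at 1 exon, 4.99% at 2, 4.34% at 3 and 2.57% at 9 exons, and single-exon genes lay close to genes of 7 exons (3.21%). The Cn mean was 5.56% at 1 exon, 7.03% at 2, 5.98% at 3 and 3.65% at 9 exons. Highly methylated bodies made up 6.06%, 9.99% and 7.77% at 1, 2 and 3 exons in An and 12.1%, 15.0% and 11.4% in Cn. Against genes of exactly 2 exons, single-exon genes were therefore lower in body mean in both subgenomes, with differences of −1.82 points in An and −1.46 points in Cn. The share of at least 50% was again highest at 1 exon and fell with each added exon up to 4, to 0.0980% in An and 0.0405% in Cn.

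**Figure D4:**
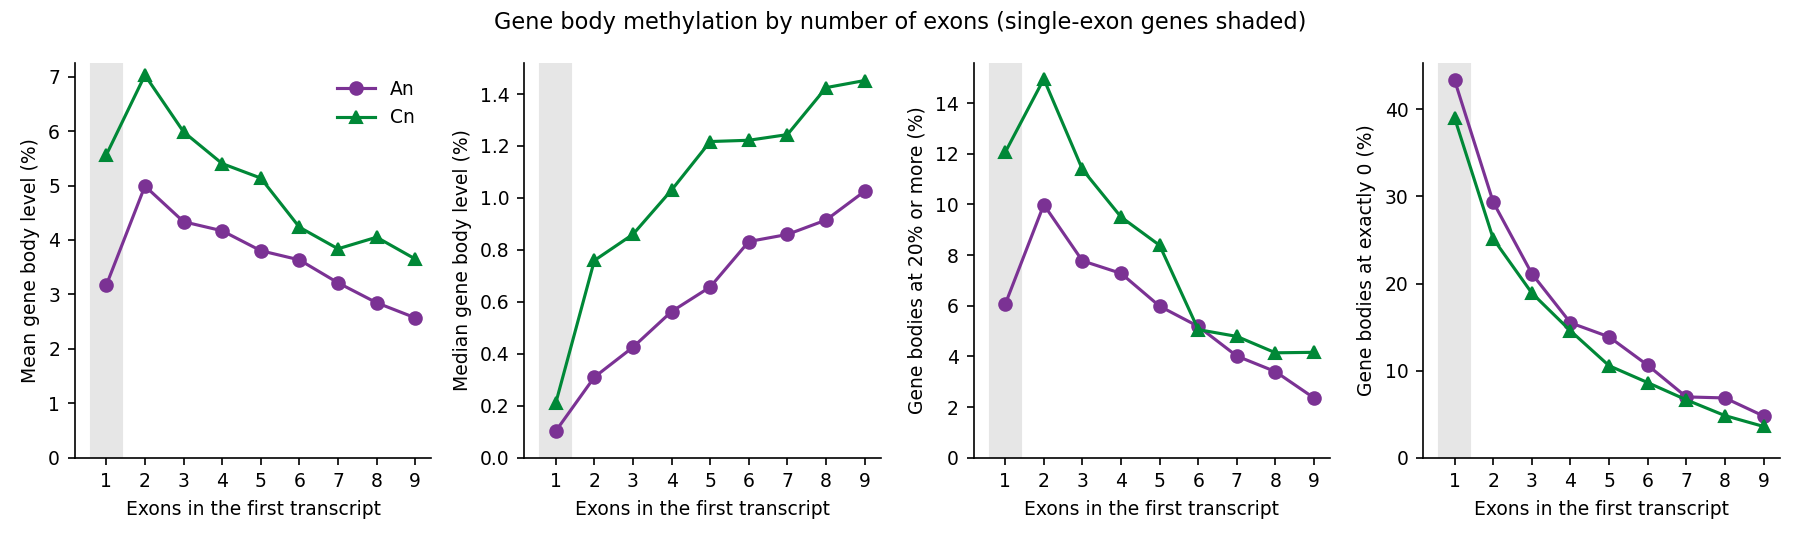
Mean gene body level (%), median gene body level (%), share of gene bodies at 20% or more (%) and share at exactly 0 (%) plotted against the number of exons in the first transcript, for An (circles) and Cn (triangles), with single-exon genes shaded. The median is lowest and the share at 0 highest at 1 exon (43.3% in An and 39.0% in Cn), whereas the mean and the share at 20% or more are highest at 2 exons.

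Single-exon genes with annotated UTRs had a different distribution from those without. Both UTRs were annotated for 619 An and 626 Cn single-exon genes. Their body mean was 1.42% ± 0.285 in An (SD of chromosome means), against 3.33% ± 0.849 in single-exon genes without a UTR. The Cn body mean was 2.09% ± 0.359 with both UTRs and 5.80% ± 0.487 without. Highly methylated bodies numbered 1 of 604 with both UTRs and 494 of 7485 without in An, and 11 of 616 with both UTRs and 1258 of 9844 without in Cn. Genes of 2 to 9 exons were split in the same way, at 0.339% with both UTRs and 8.45% without in An and 0.585% with both UTRs and 11.7% without in Cn. A level of exactly 0 was likewise rarer with both UTRs, at 17.1% against 45.7% without in An and 16.2% against 40.5% without in Cn. The median body level was the higher one with both UTRs, at 0.423% against 0.0845% without in An and 0.546% against 0.190% without in Cn. Within genes that had both UTRs, single-exon genes still had more bodies at 0 than genes of 2 to 9 exons, at 17.1% and 6.29% in An and 16.2% and 5.34% in Cn. Their body means were closer, at 1.42% in single-exon genes and 1.64% in genes of 2 to 9 exons in An, and 2.09% in single-exon genes and 1.95% in genes of 2 to 9 exons in Cn. UTR rows usually reflect transcript evidence in an annotation, and expression was not analysed here.

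Highly methylated single-exon bodies lay between methylated flanks more often than other single-exon bodies. In An, the mean flank levels were 17.9% upstream and 17.4% downstream of bodies at 20% or more, against 7.09% and 6.02% beside bodies under 20%. In Cn they were 18.2% and 17.0% beside highly methylated bodies, against 10.1% and 8.76% beside the others. Both flanks were at 20% or more in 21.4% of 467 highly methylated An bodies and in 0.93% of 7314 An bodies under 10%. In Cn they were so in 19.6% of 1260 highly methylated bodies and in 2.30% of 8627 bodies under 10%. Genes of 2 to 9 exons had nearly the same pattern, with both flanks at 20% or more beside 23.3% of highly methylated bodies and 0.966% of bodies under 10% in An, and beside 16.2% and 2.56% in Cn. Their An flank means were 17.7% and 18.5% beside highly methylated bodies and 7.44% and 5.95% beside the others. The reverse arrangement, a highly methylated body with both flanks under 10%, was found in 53 An single-exon genes (11.3%) and 100 Cn single-exon genes (7.94%), against 13.1% of highly methylated genes of 2 to 9 exons in An and 9.67% in Cn. At least 1 of the genes on either side had a highly methylated body for 33.7% of highly methylated An single-exon genes, against 8.35% of the other An single-exon genes. In Cn these shares were 31.9% and 16.9%. Flanks can overlap the neighbouring gene, so these measures are not independent of each other. Of highly methylated genes of 2 to 9 exons, 35.9% in An and 29.8% in Cn had such a neighbour.

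A body mean of 20% or more itself favours high bins, so the spread within these bodies is given as a description, for the genes with all 4 body bins. All 4 bins were at 20% or more in 151 of 295 highly methylated An single-exon genes with 4 body bins (51.2%) and in 393 of 801 such Cn genes (49.1%). In genes of 2 to 9 exons, the shares were 47.3% in An and 39.8% in Cn. A body bin at exactly 0 was present in 10 of the 295 An genes and 23 of the 801 Cn genes. Over all single-exon genes, the rank correlation of body and upstream level was 0.209 in An (n = 8047 genes) and 0.227 in Cn (n = 10429 genes). For body and downstream level, it was 0.198 in An and 0.231 in Cn. In genes of 2 to 9 exons, the values were 0.194 in An and 0.197 in Cn for the upstream flank and 0.228 in An and 0.256 in Cn for the downstream flank. These describe genes of 1 library that share reads, chromosomes and overlapping flanks.

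The surroundings were summarised by the mean flank level of the 10 genes on each side, and the genes of each subgenome were divided into 4 equal groups by it. Flanks of adjacent genes can overlap the body of the gene itself, so the grouping and the body level are not fully independent. In An single-exon genes, the body mean was 1.51%, 1.78%, 2.74% and 7.59% from the lowest to the highest group. The Cn body mean was 2.80%, 4.29%, 6.12% and 8.84%. Highly methylated single-exon bodies made up 1.83% in the lowest and 16.5% in the highest An group, and 5.04% in the lowest and 20.7% in the highest Cn group. Genes of 2 to 9 exons had a similar increase, from 1.81% to 20.4% in An and from 4.07% to 17.2% in Cn. Their body mean went from 1.94% to 9.30% in An and from 3.09% to 8.48% in Cn. Single-exon genes themselves were slightly more frequent in methylated surroundings, from 19.7% of genes in the lowest group to 24.0% in the highest in An and from 20.3% to 24.4% in Cn. The share of single-exon bodies at 0 was still 34.5% in the highest An group and 33.3% in the highest Cn group, against 13.2% and 13.5% for genes of 2 to 9 exons there.

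**Figure D5:**
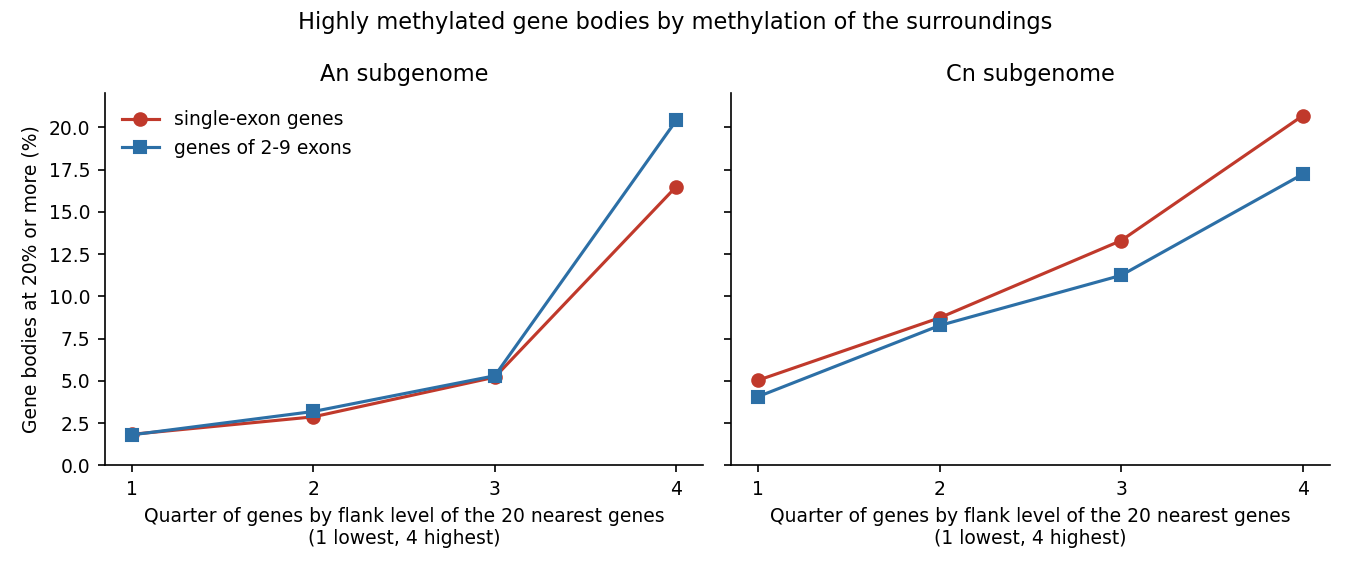
Share of gene bodies at 20% or more (%) in 4 groups of genes ordered by the mean flank level of the 10 genes on each side, for single-exon genes (circles) and genes of 2 to 9 exons (squares), in An (left) and Cn (right). The share of single-exon genes increases from 1.83% to 16.5% in An and from 5.04% to 20.7% in Cn, and in the highest group single-exon genes lie below genes of 2 to 9 exons in An (20.4%) and above them in Cn (17.2%).

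By position, each chromosome was divided into 10 segments of equal gene number in file order. The body mean of An single-exon genes was 2.50% in the first segment, 4.80% in the sixth and 2.64% in the last. In Cn it was 4.51% in the first, 6.95% in the sixth and 3.11% in the last segment. Single-exon genes lay below genes of 2 to 9 exons in every segment of An, with the widest gap in the fifth, at 4.53% in single-exon genes and 7.37% in genes of 2 to 9 exons. In Cn they lay above in 5 segments and below in 5. Single-exon genes that stood alone had a body mean of 3.16% ± 0.790 in An and 5.28% ± 0.576 in Cn (SD of chromosome means). Those in runs of 2 had 3.28% ± 1.02 in An and 5.99% ± 0.674 in Cn. The means were 3.15% ± 1.35 and 5.89% ± 0.894 in runs of 3, and 2.82% ± 1.69 and 5.70% ± 1.33 in runs of 4 or more. In Cn, genes in runs of every length thus had the higher mean, and in An only those in runs of 2 did. The SD of these differences over chromosomes was not computed.

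Individual genes illustrate the range. Among the 6837 An and 8471 Cn single-exon genes with a value in all 12 bins, BnaA04G0072300ZS (chromosome A04) had the highest An body level, at 82.1%. Its 4 body bins were at 75%, 81.3%, 93.8% and 78.6%, and the next downstream bins were at 40.4%, 0, 0 and 9.26%. BnaA03G0447000ZS (A03) had 37.0%, 64.7%, 96.9% and 100% along its body and a mean of 3.64% upstream. Its measured level thus increased from the start to the end of the gene. The read depth behind these and the other bins named here is unknown. In Cn, BnaC02G0400600ZS (C02) had the highest body level, 71.7%, with 70.1%, 69.4%, 72.2% and 75.2% along the body. BnaC08G0016600ZS (C08) had a body level of 71.0% between flanks of 4.0% upstream and 0.558% downstream. BnaC01G0179400ZS (C01) had 33.3%, 78.0%, 81.9% and 76.2% along its body and 0.568% downstream. In both of these Cn genes, the level dropped between the last body bin and the first downstream bin. The neighbouring genes of these 5 genes had mean body levels between 0.441% and 1.86%.

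The opposite pattern was seen in genes with methylated flanks and a nearly unmethylated body. BnaC05G0272300ZS (C05) had 0 in all 4 body bins, 45.7% upstream and 50.1% downstream. BnaA01G0318600ZS (A01) had a body level of 0.110% between flanks of 40.3% and 40.6%, with 60% in the bin before the gene and 0 in its first body bin. BnaA04G0180300ZS (A04) and BnaC02G0293800ZS (C02) had body levels of 0.450% and 0.908% with mean flank levels of at least 32.8% on each side. Genes at the median had hardly any body methylation. BnaA03G0285400ZS (A03) had body bins of 0, 0, 0.161% and 0.251%, and BnaC05G0496500ZS (C05) had 0.707%, 0, 0 and 0.137% beside a downstream flank of 16.0%. BnaA08G0113800ZS (A08) had a body level of 0.103% after 26.5% in the bin just upstream. BnaC07G0387500ZS (C07) had 0.211% in its body and about equal flanks of 19.2% upstream and 19.1% downstream.

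Homoeologous An and Cn genes were paired with the first 1998 rows of the authors' list of homoeologous tetrads, in which each gene has 1 counterpart in each (sub)genome. Both genes were single-exon in 417 pairs, which make up 91.2% of the 457 An single-exon genes and 92.5% of the 451 Cn single-exon genes in these rows. These paired genes had low body levels. The mean was 0.894% in An and 0.878% in Cn (n = 407 pairs), and the medians were 0.0875% in An and 0.111% in Cn. A highly methylated body was found in both genes of 1 pair, in the An gene alone of 3 pairs and in the Cn gene alone of 2 pairs. Of all single-exon genes in these rows, 1.11% in An and 1.13% in Cn were highly methylated, against 1.75% and 2.05% of their genes of 2 to 9 exons. The higher Cn share among all single-exon genes was therefore not seen in these rows, although this rests on 5 single-exon genes in each subgenome. The share of single-exon bodies at 0 was 41.0% in An and 38.5% in Cn, against 18.4% and 19.3% of genes of 2 to 9 exons, as among all genes.

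Body levels of both single-exon homoeologs had a rank correlation of 0.340 (n = 407 pairs). In these pairs, 174 An genes and 159 Cn genes were at 0, and both genes were at 0 in 90 pairs. The rank correlation was 0.226 for the upstream flanks (n = 409 pairs) and 0.272 for the downstream flanks (n = 406 pairs). Pairs come from 1 library and mostly from few chromosomes, with 295 of the 417 An genes on A01 and 121 on A02. Among the 331 pairs with all 12 bins, the largest body difference was between BnaA01G0222400ZS and BnaC01G0283000ZS. The An gene had 0 in all 4 body bins, and the Cn gene had 39.8%, 37.6%, 38.5% and 31.3%. Their flanks were alike, at 14.4% and 10.9% upstream and 23.9% and 23.8% downstream. In the pair BnaA01G0351700ZS and BnaC01G0435900ZS, the An gene was methylated, with a body level of 25.4% and 23.8% upstream, while the Cn gene had 0.710% in the body and 0 in every flank bin. BnaA01G0194100ZS and BnaC01G0244800ZS had 16.8% and 1.98%. Among the 331 pairs with all 12 bins, the highest mean was that of BnaA01G0289000ZS and BnaC01G0354800ZS, at 26.2% and 12.4%. At the lowest end, 67 pairs of the 331 with all bins had 0 in both bodies. The first of these was BnaA01G0364500ZS, with 0 in all 12 bins, and BnaC01G0455000ZS, with 0 in the body between flanks of 32.5% and 21.4%.

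In a further 40 pairs only the An gene was single-exon, and in 34 pairs only the Cn gene was. In the first set, body levels were available for 39 pairs, with a median of 0.335% in the single-exon An genes and 2.14% in the Cn partners of 2 or more exons. The single-exon gene was the lower one in 26 pairs and the higher one in 12. In the second set, with 32 pairs, the medians were 0.407% in the single-exon Cn genes and 0.447% in their An partners. The single-exon gene was lower in 16 and higher in 14 of them. The lower level of the gene with 1 exon was thus seen in most pairs of the first set and in 16 of 32 pairs of the second, and in both sets subgenome and exon number cannot be told apart for a single pair.

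The *B. oleracea* library gave values for genes of 1 coding exon, since its table holds coding exon rows but no exon or UTR rows. Mapping to ZS11 is the only one named in the methods, while this table carries identifiers of another annotation, so the genome behind these values is uncertain. These were 7730 of 58377 genes (13.2%), a different count from that used in *B. napus*, so levels are not compared between species. Their body mean was 6.41% ± 0.533 (SD of chromosome means), against 9.71% ± 0.508 in genes of 2 to 9 coding exons. The difference of −3.30 points was larger than the SD of the chromosome differences (0.499) and negative on 9 of 9 chromosomes. A body level of 0 was found in 25.9% of genes of 1 coding exon and 9.18% of genes of 2 to 9 coding exons. Highly methylated bodies made up 12.8% of genes of 1 coding exon and 21.2% of genes of 2 to 9. The share at 50% or more was 0.455% for 1 coding exon and 0.288% for 2 to 9, but 0.635% for 2 coding exons, so here it was not highest at 1 exon. The higher share at 0 was thus also measured in this library. The difference in the share at 20% or more had the same sign as in An, where it was −1.01 points and within its SD of 1.26. Its sign was opposite to that in Cn, where the difference was 1.92 points. That Cn difference was 0.00336 points among genes with all 4 body bins and −3.33 points at a 10% limit.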

How the data were processed

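DNA methylation was analysed in the BS-seq libraries of *B. napus* ZS11 and *B. oleracea* JZS (1 each). The *B. rapa* library and the expression and chromatin data of the study were not used here. The authors filtered the reads with Fastp, mapped them with BatMeth2 and deposited the methylated fraction of cytosines (0 to 1) in 12 bins of each annotated feature. Mapping to ZS11 is the only one the methods name. The *B. oleracea* table has identifiers of its own annotation, and the genome used for that library is not given separately. Cytosine context, coverage, conversion rate and bin width are not given in the sources used here, so depth is unknown and no interval is given.

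Gene rows were used unless exon rows are named, fractions were converted to percent, and a region needed 2 of its 4 bins. On exon rows, the body bins of all exons of the first transcript were averaged together, and 2 measured bins in all were enough. Single-exon genes kept their gene rows there, so the bins required differ between both classes. Exons were counted by identifier in the first transcript. Genes on unplaced scaffolds were left out. Homoeologs came from the first 1998 rows of the authors' tetrad list, and no overlap was tested. Calculations were made in Python 3.11.15 (pandas 2.3.3, numpy 2.4.6, scipy 1.17.1) and plots with matplotlib 3.10.9. The steps were tested on simulated data, in which the largest error of a simulated difference was 0.0883 percentage points. This error was not given separately for gene bodies, and none was given for the shares of gene bodies by level. The simulation therefore does not show how well the gene body results are recovered.

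Genes named had all 12 bins and were, per subgenome, the 2 highest in body level, the 2 nearest the median, the 2 with the largest excess of body over flanks and the 2 with the largest excess of flanks over body. Named pairs also had all 12 bins in both genes and were the 3 with the largest body difference, the 2 with the highest and the 1 with the lowest mean. The gene set, the lists and the thresholds were chosen with earlier results of these data known. Alternatives changed the bins required, the handling of missing and zero bins, the genes compared, the exon count, the rows, the threshold, the annotation and the weighting of chromosomes. Those for the shares at 0 and from 1% to under 20%, the surroundings and the tetrad genes were added after seeing the data.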

Additional observations from a re-analysis of the deposited data

How the results depend on the processing

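In all, 14 results were recomputed under 18 alternatives. Of 204 alternative values, 136 lay within the SD over chromosomes of the reported value. Some of these were fixed, or nearly so, by construction and say nothing about robustness. Counting exons over all transcripts left every single-exon gene in its class and changed the values little or not at all. The single-exon share at 20% or more does not depend on which genes it is compared with. A sign opposite to the reported one was found in 28 values. In 5 of these, called reversed here, the reported difference itself exceeded its SD. In the others the reported difference was within its SD, and 10 of them moved by more than the SD. All values below are differences of single-exon genes minus genes of 2 to 9 exons in percentage points, unless given as a share. With bins at exactly 0 left out, the body difference reversed to 1.39 in An and was 3.48 in Cn. Highly methylated bodies (20% or more) then made up 14.0% of single-exon genes in An (difference 3.92) and 24.0% in Cn (difference 10.2). By construction, this setting removes more single-exon bins. In Cn, requiring 4 of 4 bins gave a body difference of −0.891, a share of 8.85% and a share difference of 0.00336. Setting missing bins to 0 gave −0.709, 9.16% and 0.196, with 25.3 for the share at 0. Requiring 1 bin gave a body difference of 0.237. Medians gave −0.853 in the Cn body and 1.14 downstream. Against exactly 2 exons, An differences were −1.82 in the body, −0.415 downstream, −3.93 in the highly methylated share, 14.0 in the share at 0 and −9.59 in the share from 1% to under 20%. In Cn they were −0.208 upstream, −1.46 in the body, a reversed −0.402 downstream and a reversed −2.90 in the highly methylated share, then 13.8 and −10.6. Against all genes of 2 or more exons, the shares at 0 and from 1% differed by 28.0 and −20.6 in An and by 25.1 and −22.6 in Cn. The Cn body, downstream and highly methylated differences were then 0.364, 0.892 and 3.15. Exon rows gave 0.412 in the Cn body, 15.2 and −9.72 for those shares in An and 14.3 and −12.1 in Cn. At a 10% limit the highly methylated share was 9.39% in An (difference −3.94) and 17.3% in Cn (reversed, −3.33), and at 30% it was 3.46% (0.687) and 6.47% (3.42).

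With both UTRs annotated, An differences were 1.11 upstream, −0.212 in the body, 1.15 downstream and 10.8 in the share at 0, with 0.166% highly methylated. Cn differences were −0.0817 upstream, 1.00 downstream, 10.9 in the share at 0 and −14.6 in the share from 1%, with 1.79% highly methylated. Without UTRs, Cn had −0.405 in the body and 1.07 in the highly methylated share. Among Cn bodies under 20%, the differences were −0.540 upstream, −1.38 in the body and 0.191 downstream. Among tetrad genes, highly methylated shares were 1.11% in An and 1.13% in Cn (reversed, −0.919), the Cn body difference was −1.13, and the shares at 0 differed by 22.6 in An and 19.2 in Cn. The alternatives for the shares at 0 and from 1%, and the tetrad genes, were chosen after seeing the data. Where no construction is named, the cause was not tested. Leaving out each chromosome in turn changed no direction except in the An upstream flank (−0.0499 to 0.121). No paired analysis was possible because *B. napus* has 1 library. Without read counts, the depth behind a level of 0 is unknown.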

Other observations

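A further 1034 single-exon genes lie among the 3153 *B. napus* genes of unplaced scaffolds. In these genes, 97.7% of bins had no value, and 4 of them had a gene body level.

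The longest run of consecutive single-exon genes held 10 genes, from BnaA04G0085900ZS to BnaA04G0086800ZS. Only 2 of them had a body level, at 11.3% and 33.9%. The next held 9 genes, from BnaC04G0219800ZS to BnaC04G0220600ZS, of which 2 had a body level, at 12.2% and 14.8%. In contrast, all 8 genes of the run from BnaC07G0402400ZS to BnaC07G0403100ZS had a body level, with a median of 0.332% and a highest value of 17.5%. These runs were chosen after their values were seen.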
